A study of Mus musculus with 34 samples.

Results

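Two-colour arrays compared the epididymal fat of mice labelled HF3 with that of mice labelled HF3-REV. As the labels are read here, both groups descended from the HF2 group and were fed different diets. The comparison rests on the 2 arrays of the second experiment whose titles name both groups, out of 34 arrays in the series. On each array the log ratio was turned so that HF3 stood over HF3-REV, and a gene was followed where both turned arrays had the same sign. This held for 10527 of 22879 features (46.0%), where a feature is a gene or a probe without a gene symbol.

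The series follows a high fat diet through successive litters. STD mice ate a normal diet and HF0, their offspring as the labels are read here, ate the high fat diet. HF1 came from HF0, HF3 from HF2 and HF4 from HF3, each kept on the high fat diet. The reversal groups HF1-REV, HF3-REV and HF4-REV came, on the same reading, from the same parental groups as HF1, HF3 and HF4 but received the normal diet. HF3 and HF3-REV therefore share a high fat ancestry and differ, by the labels, in the diet of the animals themselves. The labels do not state strain, age, the composition of the diet or the number of animals behind an extract. Nothing in the labels ties the 2 arrays to different extracts, so they count as a dye swap of 1 pair of samples (n = 1 per group). HF3 was in Cy5 on array 1 and in Cy3 on array 2.

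The labels do not state which dye formed the numerator. Values are coded as Cy5 over Cy3, so a positive value means more RNA in HF3 if Cy5 was the numerator and less RNA in HF3 if Cy3 was. Signs relative to each other do not depend on this choice. The values were taken as log2, and no fold was calculated because the base is not stated. A feature is called past the size threshold where both arrays have the same sign and their mean is 1 or more in size.

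Epididymal fat is the white fat depot that lies along the testis and epididymis of male rodents. Its adipocytes store triglyceride around a lipid droplet coated with perilipin and Cide proteins, secrete adiponectin, leptin and resistin, and are embedded in capillaries, fibroblasts and resident macrophages. In obesity the depot expands and gains inflammatory cells, and a return to a normal diet is known to reduce fat mass. Sperm form in the neighbouring testis, where spermatids replace their histones first with transition proteins and then with protamines. The arrays record RNA of the whole sample, so fewer cells of a type and less RNA per cell cannot be told apart.

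Genes of the male germ line stood furthest from 0. Of all features, 679 were positive past the threshold (2.97%) and 70 were negative (0.306%). Of the 77 measured genes on the 4 germ line lists, 45 were positive past the threshold and none was negative. The part of the ratio that stayed with the dye, which turning the arrays makes opposite in sign, had an SD of 0.37 over features. The mean of the turned arrays had an SD of 0.43. With 1 swap, both values also hold the noise of the arrays. The dye part correlated at r = 0.5 with that of the other 20 arrays of experiment 2. With 46.0% of features sharing a sign, a shared sign alone carries little weight. Over all features the 2 turned arrays correlated only weakly (r = 0.15), and the positive features were closer between arrays than the negative ones. The median distance of each array from their mean was 0.25 for the positive features and 0.57 for the negative ones. Both arrays reached 1 or more for 428 of the 679 positive features and −1 or less for 11 of the 70 negative features.

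With 1 pair of samples the direct arrays give no test of their own. limma was therefore run in 2 ways over all 22879 features. The first fit took its spread from groups measured in both experiments, which assumes that HF3 and HF3-REV vary like STD, HF0 and HF4. It called 0 features (0.0%) at an adjusted p of 0.05, with 2372 at an unadjusted p under 0.05 and a smallest adjusted p of 0.215. Without the STD extract of experiment 2 the same fit called 1301. The fit has 2 residual degrees of freedom and could miss changes of the size of the threshold or larger, so its count of 0 does not show that the groups were alike. The second fit took its spread from repeated hybridisations within experiment 2 and called 1028 features positive (4.49%) and 375 negative (1.64%). Each dye swap was averaged before this fit, and HF3-REV was in 1 swap only. The distance between the 2 direct arrays therefore does not enter its p-values. They cover measurement error as seen in other pairings and say nothing of variation between animals. Olfr995, at −0.74 and −3.63 on the 2 arrays, had an SE of 0.18 in this fit. No difference below passed the first fit, and "passed the hybridisation fit" refers to the second.

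**Figure D1:**
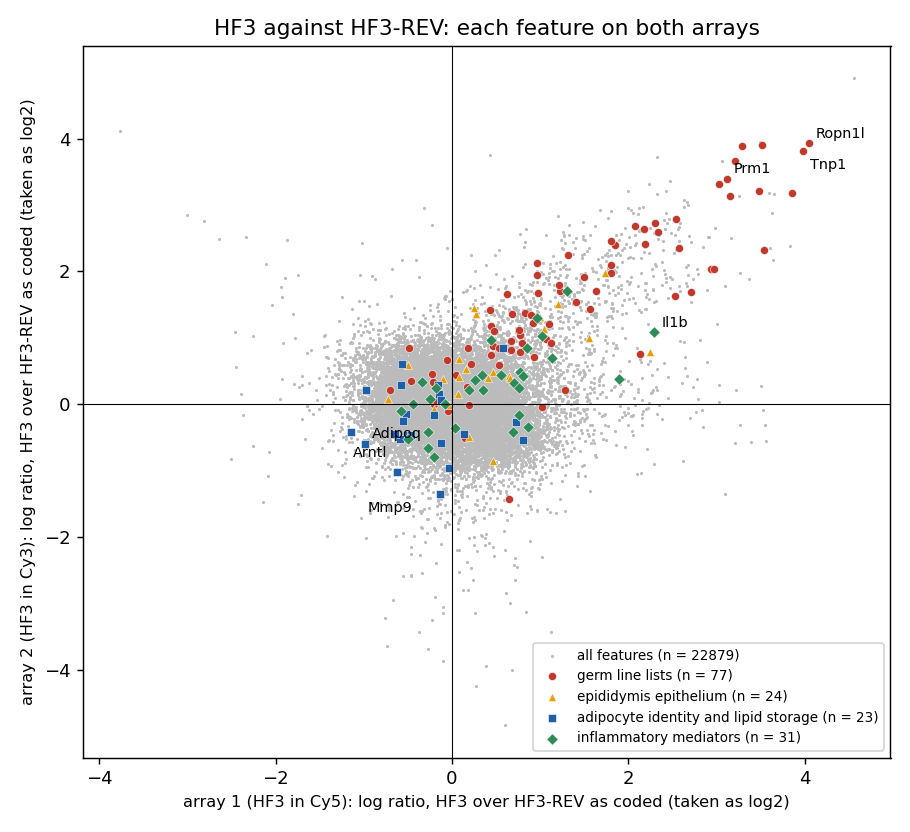
Log ratio of every feature on array 1 (horizontal) and array 2 (vertical), HF3 over HF3-REV as coded, with the germ line (n = 77), epididymis (n = 24), adipocyte (n = 23) and inflammatory (n = 31) lists marked. Germ line genes such as Tnp1 (3.98 and 3.82) extend to the upper right, while adipocyte genes such as Adipoq (−0.99 and −0.59) lie mostly at the lower left of 0.

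Genes that pack sperm DNA had the highest list median, 2.39 over 8 measured genes, against −0.00 over all features. Tnp1, a transition protein that displaces histones, stood at 3.98 on array 1 and 3.82 on array 2. Its partner Tnp2 stood at 3.29 and 3.89. The arrays gave nearly equal values for Tnp1 and differed more for Tnp2. The protamines, which replace the transition proteins, followed: Prm1 at 3.12 and 3.39 and Prm2 at 2.94 and 2.03. The spermatid linker histones H1f7 (2.19 and 2.41) and Hils1 (0.96 and 1.94) were lower, and Prm3 (0.77 and 0.80) did not reach the threshold. H1f6, the testis linker histone of meiotic cells, was at −0.04 and −0.10. In the hybridisation fit 6 of the 8 passed, with adjusted p = 4.79e-05 for Tnp1 (mean 3.90, SE 0.18). In the fit with pooled spread the adjusted p of Tnp1 was 0.451.

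Genes of sperm metabolism and the tail had a median of 1.32 over 23 genes. Of these, 14 were past the threshold and 13 passed the hybridisation fit. Ropn1l, a protein of the flagellar radial spokes, had the highest mean of any feature with a gene symbol, from 4.05 on array 1 and 3.93 on array 2. Ldhc, the lactate dehydrogenase of germ cells, was at 3.48 and 3.22. The outer dense fibre genes Odf2 (2.55 and 2.78) and Odf1 (1.85 and 2.40) and the fibrous sheath anchor Akap3 (2.07 and 2.68) were high on both arrays. Akap4, the partner of Akap3 in the sheath, was at 0.46 and 0.88, and the glycolytic Pgk2 at 0.18 and 0.84. Hk1, a hexokinase that most tissues express, was at 0.19 and −0.01.

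Genes of the earlier, meiotic stages were positive too. Of 22 genes of meiosis and of the piRNA pathway, which silences transposons in germ cells, 13 were past the threshold and the median was 1.13. Meig1 (3.51 and 3.90) and Mael (3.21 and 3.66), a piRNA factor, were the highest. The germ cell helicase Ddx4 was at 2.58 and 2.35 and the Piwi protein Piwil1 at 2.31 and 2.73. Synaptonemal complex genes were lower, with Sycp3 at 1.80 and 2.10, Sycp1 at 1.22 and 1.71 and Sycp2 at 0.17 and 0.26. Spo11, which cuts DNA to start recombination, was at 1.50 and 1.91. The meiotic cohesin Rec8 had opposite signs, at −0.18 and 0.06.

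Among 25 genes of the acrosome and sperm surface, 13 were past the threshold, with a median of 1.02. Adam3, needed for sperm to bind the egg coat, was at 3.85 and 3.19, and Crisp2, a secretory protein of the acrosome, at 3.03 and 3.32. The spermatid kinases Tssk1 (3.15 and 3.14) and Tssk3 (2.34 and 2.60) were high, whereas Tssk2 had opposite signs at −0.46 and 0.35. The fusion protein Izumo1 was at 0.67 and 0.82. Acr, the acrosomal protease, was at 1.12 and 0.92. Adam18 disagreed most, at 0.64 and −1.43.

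Whole gene families with many testis members were counted after their values had been seen, and they include genes of the lists above. The Odf family had 4 of 7 measured members past the threshold, the Cypt family 3 of 4, the Spata family 8 of 24, the Tex family 9 of 32 and the Cfap family of cilia and flagella 5 of 21. Other families looked up included Adam with 6 of 28, Defb with 6 of 25, Ccdc with 12 of 112 and Col with 0 of 42. Over all features 2.97% were positive past the threshold and 0.306% negative. The olfactory receptor family, with 737 members, had 0 positive and 5 negative. The highest genes outside the fixed lists included Clec2m (3.49 and 3.94), the chaperone gene Dnajb3 (3.65 and 3.17), Shcbp1l (3.60 and 3.18) and the phosducin-like Pdcl2 (3.06 and 3.67).

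Promoter windows of the positive genes are given because many germ cell genes are driven by the activator CREM, which binds the cyclic AMP response element TGACGTCA. Windows of 300 bases, from 250 before to 50 after the RefSeq start on build GRCm38.p6, matched 482 of the 600 positive genes with a symbol and 14738 of 18617 genes in all. The element, searched on both strands, was in 13 of the 482 windows (2.70%) in 3 of the 41 negative windows (7.32%) and in 380 of all windows (2.58%). The related TGACGNAA was in 1.45% of the positive windows and 2.15% of all. The 3 genes with the highest values among those whose window holds TGACGTCA before the start are shown, with the element in capitals. This choice did not cover every chromosome, so a gene with a higher value may be left out. The Mlf1 window spans chr3:67373977-67374096 on the plus strand and its gene was at 2.78 and 2.04. The Fam71e1 window spans chr7:44496475-44496594 on the plus strand, with the gene at 2.13 and 2.60. The Iqcf3 window spans chr9:106561627-106561746 on the minus strand, with the gene at 1.98 and 2.41. Each window is the 120 bases directly before the start, read 5′ to 3′ on the strand of the gene.
Mlf1: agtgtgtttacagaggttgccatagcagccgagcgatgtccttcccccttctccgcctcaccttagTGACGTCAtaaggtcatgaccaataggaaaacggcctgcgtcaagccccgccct
Fam71e1: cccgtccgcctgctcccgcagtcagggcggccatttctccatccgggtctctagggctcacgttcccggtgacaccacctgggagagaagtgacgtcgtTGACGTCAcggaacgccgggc
Iqcf3: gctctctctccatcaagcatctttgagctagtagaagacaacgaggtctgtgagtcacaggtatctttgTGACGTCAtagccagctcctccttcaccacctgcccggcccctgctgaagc

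None of the 11 windows found for the 12 most positive genes held TGACGTCA. AGGTCA, an element bound by orphan nuclear receptors, was searched after the values had been seen. It was in 111 of the 482 positive windows (23%), in 5 of 41 negative windows (12.2%) and in 2034 of all windows (13.8%). The positive windows were also poorer in G and C, with a median of 53.5% against 57.7% for all windows, and the part of base composition in that share was not tested. Tnp2 was the only gene of those 11 with AGGTCA before the start, within the same choice of chromosomes. Its window, the bases from 176 to 57 before the start at chr16:10788712-10788831 on the minus strand, holds the element as TGACCT, in capitals.
Tnp2: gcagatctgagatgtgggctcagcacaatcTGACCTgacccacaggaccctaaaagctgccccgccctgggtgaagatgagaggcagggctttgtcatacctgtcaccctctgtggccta
CCAAT was in 40.9% of the positive windows and 38.4% of all, the interferon-stimulated response element in 1.87% and 3.11%, and the sterol element TCACCCCAC in 0.415% and 0.577%. A match is a description of the letters in these windows and not a bound site.

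Genes of the epididymis, which adjoins the fat, were also positive, though less far from 0. Of 24 genes of the epididymis epithelium, 17 were positive on both arrays (23% of all features were) and 6 were past the threshold, with a median of 0.44. Wfdc15b, a protease inhibitor of the epididymis, was at 1.74 and 1.97, and Spink8, of another inhibitor family, at 2.24 and 0.80. Adam7, an epididymal surface protein, was at 1.55 and 1.00. Of 13 markers of testis somatic cells, 5 were positive and 1 negative on both arrays, with a median of 0.01 on array 1 and 0.49 on array 2. The steroid enzymes Hsd17b3 (1.01 and 1.04) and Cyp17a1 (1.50 and 0.49) passed the hybridisation fit, whereas the Sertoli cell factor Sox9 was at −0.32 and −0.29. Of 8 markers of the seminal vesicle, 1 was positive and 1 negative on both arrays, with a median of 0.07. The table holds ratios and no levels, so how much germ cell or epididymal RNA either sample held is not known, and the part of these markers in the differences of other lists was not tested. Leaving out every gene of the germ line, epididymis, seminal vesicle and testis lists left 627 of the 679 positive features. The lists are short, with 77 measured germ line genes, and do not hold every gene of these tissues. The count of 627 therefore does not show how many positive features come from other cells.

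**Figure D2:**
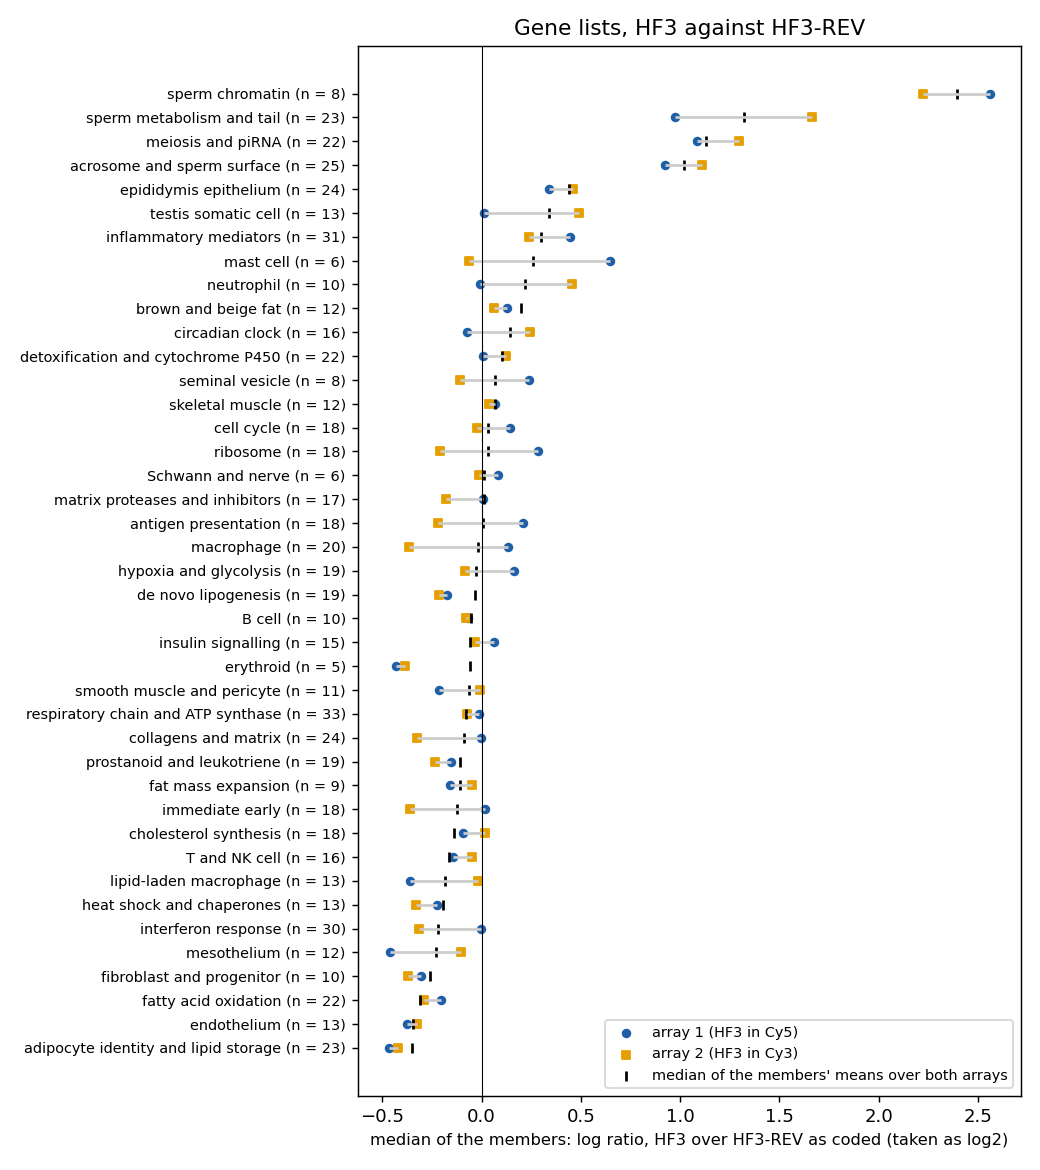
Median log ratio of each of 41 gene lists on array 1 (circles) and array 2 (squares), with the median of the members' means as a tick, which need not fall between them. The ticks of the 4 germ line lists lie above 1, that of the epididymis list at 0.44, and that of the adipocyte list at the bottom at −0.35.

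Adipocyte genes leaned to the opposite sign. Of 23 genes of adipocyte identity and lipid storage, 13 were negative on both arrays and 1 was positive, where 23% of all features were negative on both. The median of the means was −0.35, and the medians of the single arrays were −0.47 and −0.42. None was past the threshold, and 3 passed the hybridisation fit as negative, where 1.64% of all features did. Cidec, which enlarges lipid droplets, was at −0.62 and −1.02 (adjusted p = 0.0413). Adipoq, which encodes adiponectin, was at −0.99 and −0.59 (0.0135). Retn, which encodes resistin, was at −0.14 and −1.35 (0.0122), so that array 2 carried most of its value. In the fit with pooled spread the adjusted p of these 3 genes was 0.511, 0.470 and 0.344.

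The droplet protein Plin2 (−1.15 and −0.42) and the adipocyte regulator Pparg (−0.59 and −0.53) were negative on both arrays without passing either fit. So were the lipases Lipe (−0.04 and −0.96) and Mgll (−0.51 and −0.46) and the fatty acid transporter Cd36 (−0.12 and −0.57). Dgat1, which completes triglyceride synthesis, was the exception at 0.58 and 0.85. Lep, which encodes leptin and usually follows fat mass, had opposite signs at −0.16 and 0.29. Fabp4, an abundant fatty acid carrier of adipocytes, did too, at 0.80 and −0.54.

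Genes tied to expanding fat gave no common sign. Of 9 measured, 1 was positive and 3 negative on both arrays, with a median of −0.11. Mest, which marks growing adipocytes, was at −0.11 and 0.04, and the Wnt antagonist Sfrp5 at −0.65 and −0.58. Lipogenesis genes had a median of −0.03 over 19 genes, with 6 negative and 2 positive on both arrays. Beside the counts of both lists, 23% of all features were negative and 23% positive on both arrays. Pck1, which feeds glycerol synthesis in fat, was at −0.17 and −1.52 and passed the hybridisation fit (adjusted p = 0.00662). Scd1, which makes monounsaturated fat, was at −0.52 and −0.74. Fasn, the fatty acid synthase, had opposite signs at −0.27 and 0.21.

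Fatty acid oxidation genes leaned negative as a group. Of 22 genes, 15 were negative on both arrays and 1 positive, where 23% of all features were negative and 23% positive on both. The median was −0.31, yet none was past the threshold and none passed the hybridisation fit. Pdk4, which spares glucose during fasting, was at −0.97 and −0.32. Cpt2, the mitochondrial carnitine transferase, was at −0.72 and −0.48, and the dehydrogenases Acadl and Etfdh at −0.34 and −0.80 and at −0.36 and −0.69. Cpt1a, the rate-limiting transferase, had opposite signs at 0.75 and −1.51. Respiratory chain genes had a median of −0.08 over 33 genes. Uqcrc1, a complex III subunit, was at −0.34 and −2.54, a value carried by array 2. Brown and beige fat genes had a median of 0.20 over 12 genes, and Ucp1, the uncoupling protein, was at −0.28 and −0.02.

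Endothelial genes were negative with similar values. Of 13 markers, 9 were negative on both arrays and none was positive, with a median of −0.35. Of all features, 23% were negative and 23% positive on both arrays. The angiopoietin receptor Tek was at −0.69 and −0.71 and Egfl7 at −1.02 and −0.30, and both passed the hybridisation fit (adjusted p = 0.0274 and 0.0471). They were the only 2 of the 13 to pass it, where 1.64% of all features passed as negative. The phosphatase Ptprb was at −0.42 and −0.81 and the vascular growth factor receptor Kdr at −0.42 and −0.45. Pecam1, a general endothelial marker, had opposite signs at −0.35 and 0.11. Fibroblast and progenitor markers had a median of −0.26 over 10 genes, with 5 negative and 1 positive on both arrays. Mesothelial markers stood at −0.23 over 12 genes, with 6 negative and 1 positive.

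Inflammatory mediators stood on the positive side, together with the germ line genes. Of 31 genes, 17 were positive and 6 negative on both arrays, with a median of 0.30. Of the 31, 5 were positive past the threshold and 8 passed the hybridisation fit as positive. Over all features, 23% were positive on both arrays, 2.97% were positive past the threshold and 4.49% passed that fit as positive. Il1b, an activator of innate immunity, was at 2.29 and 1.09, and its antagonist Il1rn at 0.97 and 1.31. Il6, an acute phase cytokine, was at 1.31 and 1.70. Ptgs2, the inducible cyclooxygenase, was at 1.02 and 1.03, and the adhesion molecule Icam1 at 0.85 and 0.85. Arrays agreed less for Nlrp3, an inflammasome sensor, at 1.89 and 0.38. The hybridisation fit gave an adjusted p of 0.000603 for Il1b and 0.000495 for Il6, and the pooled fit gave 0.253 and 0.622.

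The monocyte attractant Ccl2, often followed in obese fat, had opposite signs at 0.69 and −0.42. Tnf was at 0.78 and 0.49 and passed neither fit. The acute phase gene Hp (−0.21 and −0.79) and Il18 (−0.49 and −0.53) were negative on both arrays. Ptgds, a prostaglandin D synthase that testis and epididymis express as well, was at 1.64 and 1.13.

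Markers of the immune cells that could carry such genes had no common sign. Macrophage markers had a median of −0.02 over 20 genes, with 4 positive and 7 negative on both arrays. Of all features, 23% were positive and 23% negative on both. Adgre1, a surface receptor of mature macrophages, was at −0.27 and −0.15, the complement gene C1qa at −0.68 and −0.58, and the endotoxin receptor Cd14 at 1.01 and 0.32. Neutrophil markers had a median of 0.22 over 10 genes, from −0.01 on array 1 and 0.46 on array 2, and only 3 had the same sign on both, all positive. S100a8 (0.73 and 0.87) and S100a9 (0.94 and 0.55), which encode the 2 chains of calprotectin, passed the hybridisation fit with adjusted p = 0.0164 and 0.0348. T and NK cell markers stood at −0.16 over 16 genes. The part of these cells in the values of the mediators was not tested.

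Interferon response genes leaned negative, with 12 of 30 negative and 4 positive on both arrays and a median of −0.22. Array 2 carried this median, at −0.31 against −0.00 on array 1. The RNA sensors Oasl2 (−0.57 and −1.12) and Oas2 (−1.11 and −0.27) were the lowest, while Oasl1 was at 0.57 and 0.75. Heat shock genes had 6 of 13 negative and 1 positive on both arrays. Over all features, 23% were negative and 23% positive on both arrays, and neither list was tested against that share. The chaperonin Hspe1 was at −0.55 and −0.59 and the inducible Hspa1b at −0.11 and −0.97.

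Of the matrix genes, only Mmp9 was past the threshold. This gelatinase was at −1.04 and −1.70 (adjusted p = 0.00103 in the hybridisation fit and 0.275 in the pooled fit). Timp4, a protease inhibitor of fat, was at −1.22 and −0.72, and the matrix protein Ccn2 at −0.65 and −0.66. The related gelatinase Mmp2 had the other sign, at 0.76 and 0.45. Collagens and other matrix genes had a median of −0.09 over 24 genes. Cyp2e1, a cytochrome P450 of liver and fat, was at −0.88 and −1.08.

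Of 16 clock genes, 6 were positive and 3 negative on both arrays, where 23% of all features were positive and 23% negative on both. Arntl, which with Clock activates the other clock genes, was at −1.21 and −0.88. Clock itself was at −0.54 and −0.25. Dbp, a direct target of that pair, was at 0.90 and 1.13, and Nr1d2, a repressor of Arntl, at 1.00 and 0.16. Arntl, Dbp and Nr1d2 passed the hybridisation fit (adjusted p = 0.0107, 0.00495 and 0.0429) but not the pooled fit (0.469, 0.328 and 0.722). Per1 (−0.32 and 0.01), Per2 (−0.09 and 0.37) and Nr1d1 (−0.56 and 0.39) had opposite signs on the arrays. The labels do not state the hour at which each group was sampled, and its part in these values was not tested.

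**Figure D3:**
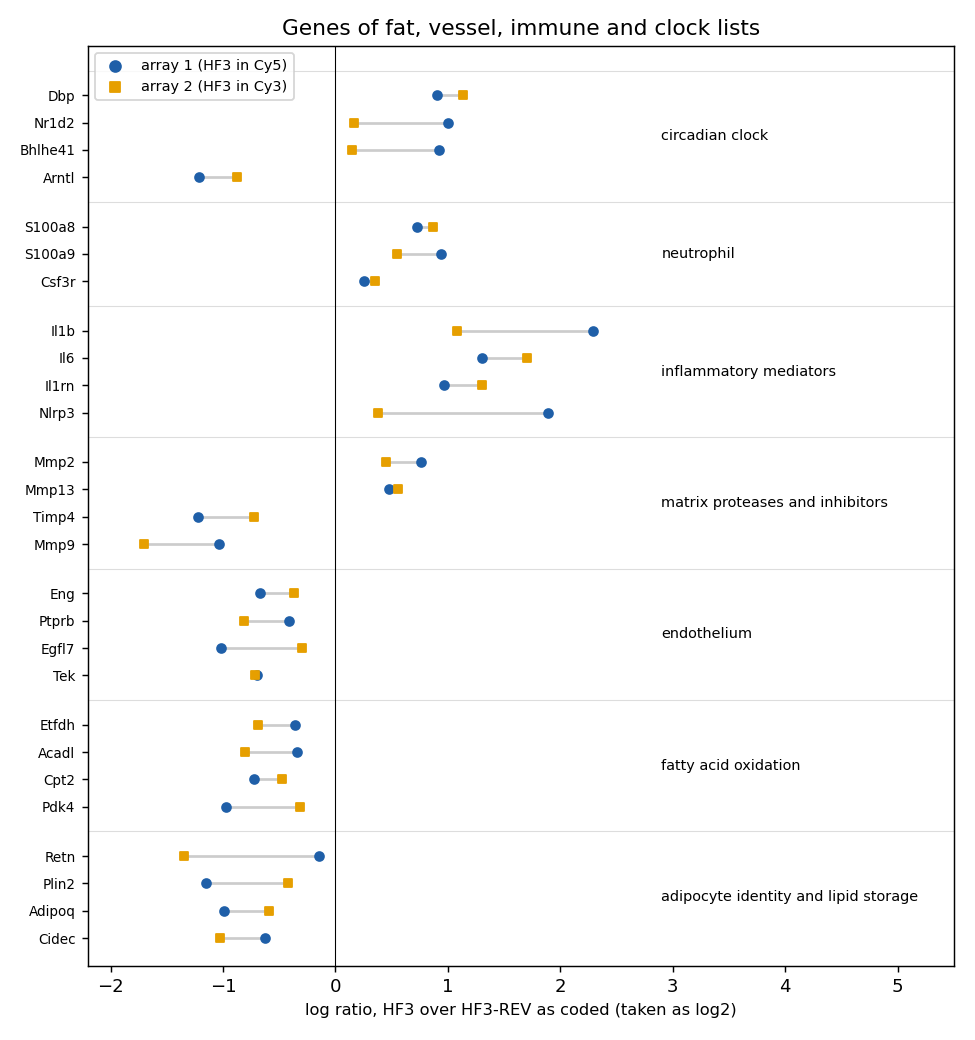
Log ratio of genes from 7 lists, chosen as the up to 4 members of each with the largest mean and the same sign on both arrays, on array 1 (circles) and array 2 (squares). Adipocyte, oxidation and endothelial genes lie left of 0, inflammatory and neutrophil genes lie right of 0, and Arntl lies opposite Dbp and Nr1d2.

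Among features with the same sign on both arrays, many of the most negative matched poorly between arrays. A further 39 features had a mean of 1 or more in size but opposite signs on the arrays, and these are not counted as past the threshold. Olfr995, an olfactory receptor, had the lowest mean of the named genes at −0.74 and −3.63. Bcl7c (−0.76 and −3.21), a chromatin remodelling subunit, and Myl2 (−0.27 and −3.68), a muscle myosin light chain, were likewise carried by array 2. Iftap, at −2.51 and −0.83, was carried by array 1. Of the 12 most negative genes, 4632428C04Rik came closest to equal values, at −1.75 and −1.50. The pooled fit gave its smallest adjusted p of 0.215 to several of these genes, Olfr995 and Bcl7c among them. Features just inside the threshold had means of 1.0001 and −1.0027, and those just outside had 0.9998 and −0.9973.

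The other reversals of the series were set beside these values. HF1 and HF4 were each set against their own REV group on 2 arrays, and no sample is shared between the reversals. The turned arrays correlated at r = −0.31 in the HF1 reversal and 0.57 in the HF4 reversal, against 0.15 in the HF3 reversal. The 2 HF1 arrays thus disagreed across features, which limits the HF1 counts, overlaps and medians given below. The HF4 reversal gave 1348 positive features past the threshold (5.89%) and 947 negative (4.14%), and the HF1 reversal 105 (0.459%) and 45 (0.197%). Of the 679 positive features of the HF3 reversal, 566 were also positive past the threshold in the HF4 reversal, which is 83.4% of the first list and 42.0% of the second. With the HF1 reversal 44 were shared, 6.48% of the HF3 list and 41.9% of the HF1 list. Of the 70 negative features, 5 were shared with the HF4 reversal and 0 with the HF1 reversal. Across features, which are not independent replicates, the HF3 and HF4 values correlated at r = 0.58. Without the features positive past the threshold in either, r was 0.23 over 21418 features.

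Germ line genes were among the shared features. Sperm chromatin genes had a median of 2.39 in the HF3 reversal, 4.12 in the HF4 reversal and 1.19 in the HF1 reversal. Tnp1 was at 6.20 and 3.60 in the HF4 reversal and at 1.57 and 1.45 in the HF1 reversal. Prm2 stood further from 0 in the HF1 reversal, at 4.04 and 4.71, than in the HF3 reversal (hybridisation fit, adjusted p = 0.0305; pooled fit, 0.872). In the comparison of HF4 with HF0 in experiment 1, which shares no sample with these arrays, 514 of the 679 features (75.7%) were at 0.5 or more, against 6.46% of all features. Leaving out the features with such values, an alternative chosen after seeing the data, left 165 positive features.

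The epididymis list had similar medians in the 3 reversals, at 0.44 in HF3, 0.45 in HF1 and 0.59 in HF4, and its members differed among themselves. Wfdc15b was at 2.20 and 1.94 in the HF1 reversal and at 1.43 and 2.15 in the HF4 reversal, near its HF3 values. Spink2 had a mean of 1.36 in the HF3 reversal and of 0.46 in the HF1 reversal. Lcn5, an epididymal retinoid carrier singled out after its values were seen, was at 0.16 and 0.53 in the HF3 reversal. It was at 3.87 and 4.65 in the HF1 reversal and at 3.29 and 3.64 in the HF4 reversal. Spink8 was at 4.07 and 4.89 in the HF1 reversal against 2.24 and 0.80 in the HF3 reversal. The difference between the HF3 and HF1 reversals was −3.91 for Lcn5 and −2.96 for Spink8, with adjusted p of 0.00467 and 0.00163 in the hybridisation fit and 0.738 and 0.846 in the pooled fit. Ldhc, by contrast, stood further from 0 in the HF3 reversal (3.48 and 3.22) than in the HF1 reversal (1.44 and 1.86). Its adjusted p for that difference was 0.0246 in the hybridisation fit.

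The difference between reversals was tested for every feature. Between the HF3 and HF4 reversals 2362 features (10.3%) passed the hybridisation fit, and between the HF3 and HF1 reversals 444 (1.94%). The pooled fit called 0 in each (0.0%), with 2343 and 1389 at an unadjusted p under 0.05. Cd36 was among the features that differed from the HF4 reversal, at −0.12 and −0.57 in the HF3 reversal and at −2.83 and −3.27 in the HF4 reversal (hybridisation fit, adjusted p = 0.00189). C1qc, a macrophage complement gene, was at −0.38 and −0.73 against −2.60 and −2.77 (0.00248). Cd36 was singled out here after its values were seen. Macrophage markers had a median of −0.02 in the HF3 reversal and −0.96 in the HF4 reversal.

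Arntl, Dbp and Nr1d2 had opposite signs in the HF3 and HF4 reversals. Arntl was at 0.49 and 0.46 in the HF4 reversal, Dbp at −0.71 and −1.05 and Nr1d2 at −0.90 and −0.80. The differences between the HF3 and HF4 reversals were −1.52 for Arntl, 1.90 for Dbp and 1.44 for Nr1d2, with adjusted p of 0.0102, 0.00317 and 0.0056 in the hybridisation fit. The pooled fit gave 0.475, 0.475 and 0.550. Bhlhe41, a clock repressor, was positive on both arrays of both reversals, at 0.92 and 0.15 in HF3 and 0.18 and 1.19 in HF4. In the HF1 reversal Arntl (−0.58 and −0.50) and Dbp (0.42 and 0.55) had the signs of the HF3 reversal at smaller size.

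Several inflammatory genes also differed in the hybridisation fit, though none did in the pooled fit. Among them, Ccl4 was singled out after its values were seen. Tnf was at −0.75 and −0.71 in the HF4 reversal and S100a9 at −1.12 and −1.04, where both were positive in the HF3 reversal, with adjusted p of 0.0124 and 0.00471 for the differences in the hybridisation fit. The attractant Ccl4 was at 0.56 and 0.45 in the HF3 reversal and at −1.88 and −1.54 in the HF4 reversal (0.00315). Ptgs2 was positive in all 3 reversals, at 2.81 and 2.26 in HF4 and 0.89 and 0.85 in HF1. Mmp9 was negative in all 3, at −1.85 and −2.25 in HF4 and −1.28 and −0.35 in HF1. Adipocyte genes had a negative median in each reversal, at −0.35 in HF3, −0.60 in HF4 and −0.32 in HF1. Endothelial genes did as well, at −0.35, −0.50 and −0.36.

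**Figure D4:**
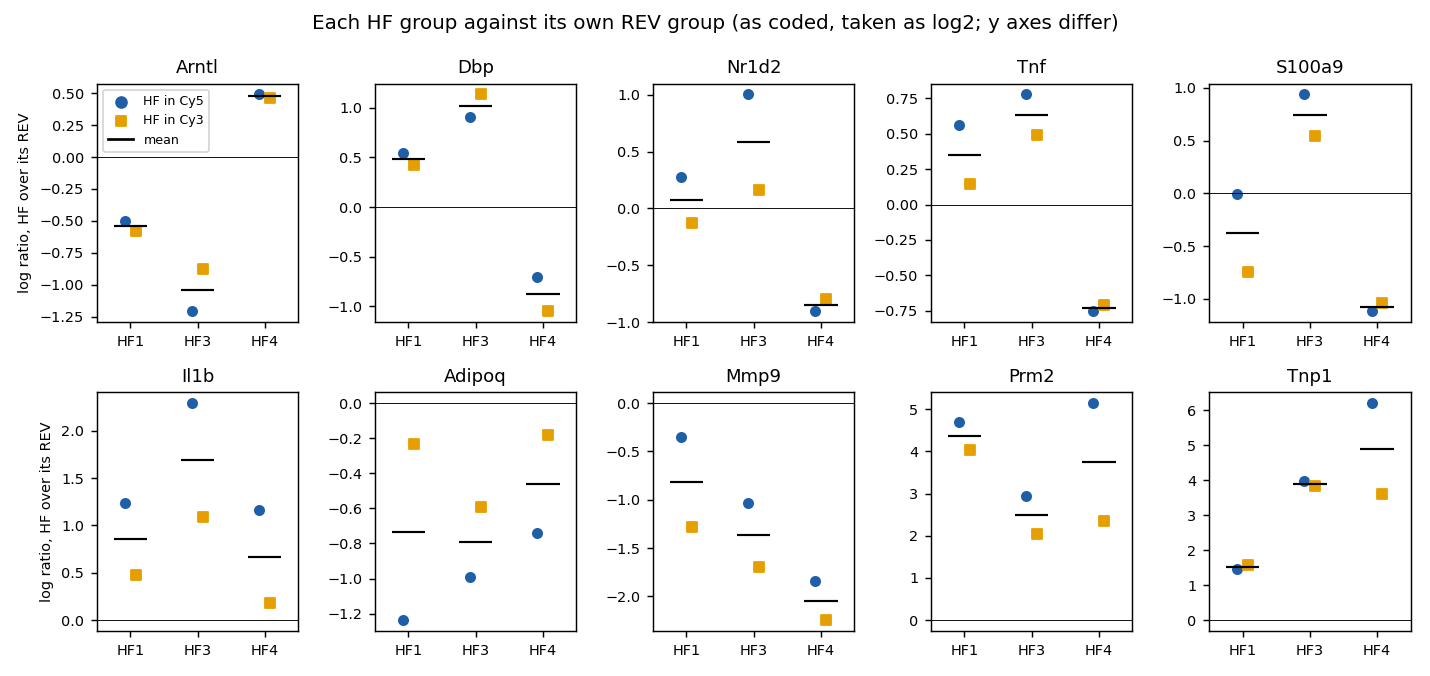
Log ratio of 10 genes in the HF1, HF3 and HF4 reversals, each HF group over its own REV group, with the array that had the HF group in Cy5 (circle), the dye-swapped array (square) and their mean (line). Arntl, Dbp, Nr1d2, Tnf and S100a9 lie on opposite sides of 0 in the HF3 and HF4 reversals, whereas Adipoq and Mmp9 are below 0 and Prm2 and Tnp1 above 0 in all 3.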

How the data were processed

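RNA of epididymal fat was hybridised on two-colour arrays, 1 diet group per dye. The authors deposited 1 log2 ratio per probe and array, where base 2 was taken because the highest value, 7.99, exceeds the 4.82 that base 10 allows for 16-bit intensities. A natural log would also be possible. No source used here gives the background correction or normalization. RNA was extracted with Qiagen reagents and labelled with an Ambion kit, per the labels.

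Each array was centred on its median (−0.062 to 0.046 as deposited). Of 25344 probes, 21082 had 1 gene symbol, 30 several and 4232 none, and probes of a gene were averaged. With no intensities in the table, dim spots stayed in, and precision rests on the number of arrays. limma 3.58.1 in R 4.3.3, with Benjamini-Hochberg adjustment over all features, was fitted to group values of both experiments with experiment as a block, or to dye-swap averages of experiment 2. The scripts were tested on simulated data, in which the pooled fit recovered the sizes of added changes but called none of them.

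The naming rule took the 12 most positive and 12 most negative genes with the same sign on both arrays. It took the same again without the germ line and tract lists, up to 4 per list with the largest values, and 11 fixed genes. Further genes of the lists, Cd36, Ccl4, Kdr and Odf2 among them, are given outside this rule and were chosen with their values known. Members and lists were chosen with earlier results of these data known. Alternatives covered centring, scaling, probe averaging, each array alone, a dye correction, the threshold and the source of spread.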

Additional observations from a re-analysis of the deposited data

Results flagged for a closer look

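In 9 cases the median of a gene list had one sign on both arrays of the HF3 reversal and the other sign on both arrays of another reversal. None of these differences between lists was tested. Beside the HF4 reversal, inflammatory mediators stood at 0.30 in the HF3 reversal and −0.02 in the HF4 reversal, detoxification genes at 0.10 and −0.16, and mesothelial markers at −0.23 and 0.03. Brown and beige fat genes stood at 0.20 and 0.09, where both single arrays of the HF4 reversal had negative medians. Beside the HF1 reversal, lipid-laden macrophage markers stood at −0.18 in the HF3 reversal and 0.32 in the HF1 reversal, and prostanoid genes at −0.11 and 0.19. Heat shock genes stood at −0.19 and 0.09, collagens and matrix genes at −0.09 and 0.09, and testis somatic markers at 0.34 and −0.03. Apart from the inflammatory and testis somatic lists, each HF3 median named here was 0.23 or less in size.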

How the results depend on the processing

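The positive count of 679 was 658 without centring, 651 with scaling and 677 after subtracting the dye effect of the other swaps. Without the short germ line and tract lists, which do not hold every such gene, the positive count was 627. It was 428 when both arrays had to reach 1, 1732 at a threshold of 0.5, 156 at 2, and 165 without features positive in HF4 against HF0. The negative count of 70 was 11, 916 and 1 under the first 3 of these. With 1 array alone it was 333 to 413, and the positive count 881 to 1068. The pooled fit's 0 calls became 1403 with the hybridisation spread, 1301 without the STD extract of experiment 2, 97 to 162 with either array alone, and 20 with HF3 averaged over both experiments. The robust prior and scaling left it at 0. Between the HF3 and HF1 reversals the 0 became 444 with the hybridisation spread and 359 without that STD extract. Between the HF3 and HF4 reversals it became 2362 with the hybridisation spread, and without the STD extract the model could not be fitted, since no residual degrees of freedom remain. The cause of these shifts was not tested. Of 41 list medians, 3 turned sign without centring, 8 without replicate 1 and 7 without replicate 2, and 0 under scaling, probe medians or the dye correction. No paired analysis was possible because array numbers only name the 2 orientations of a dye swap and link no samples between groups.

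The limits are few samples and unknown brightness. Each group is 1 set of extracts, so variation between animals was not measured. Unknown numerator and log base leave directions and folds unsettled.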

Other observations

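Glucose uptake and nerve genes outside the groups described so far held a few large values. Hk2, the insulin-responsive hexokinase, was at 0.89 and 1.41 in the HF3 reversal and at 1.56 and 2.00 in the HF4 reversal. Slc2a1, the basal glucose transporter, was at 1.21 and 0.37, and the Schwann cell regulator Sox10 at 1.39 and 0.22. The list of 19 hypoxia and glycolysis genes, which holds Hk2 and Slc2a1, had a median of −0.03. Schwann and nerve markers had a median of 0.01 over 6 genes, with 2 positive and 2 negative on both arrays. The myelin gene Mbp was among the negative ones, at −0.65 and −0.25. Idi1, an enzyme of cholesterol synthesis, was at 0.20 and 1.77, a value carried by array 2, and the list of 18 cholesterol synthesis genes had a median of −0.14. H2-T23, a nonclassical histocompatibility gene, was at 1.91 and 0.13 in the HF3 reversal and at −1.44 and −1.99 in the HF4 reversal, where antigen presentation genes had a median of −0.78 against 0.01 in the HF3 reversal, a value so near 0 that its sign turns without centring. Among proliferation genes Bub1 (0.64 and 0.78) and Rrm2 (0.99 and 0.36) passed the hybridisation fit, and the list of 18 stood at 0.03. The heme enzyme Alas2 of red cell precursors was at −0.43 and −0.39 against −2.98 and −2.61 in the HF4 reversal. The list of 5 erythroid markers had a median of −0.06 in the HF3 reversal and −0.80 in the HF4 reversal.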
